A study of Mus musculus with 16 samples.

Results

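Of the 11631 protein-coding genes measured in cardiomyocytes of mice, 288 carry a name made of Zfp and a number with nothing after it, and these are the zinc finger genes described here. The name is the only criterion by which they were chosen, and no measured value entered the choice. A further 26 genes with a Zfp name that has a letter after the number, or no number, are not members. Primary cultured adult cardiomyocytes came from C57BL/6 mice of about 8 weeks (control) or from C57BL/6 mice kept on high fat chow for 26 weeks and given streptozotocin once 12 of those weeks had passed (DM-HFD). Cells of both kinds were kept for 24 h with linagliptin at 9 nmol/L, an inhibitor of dipeptidyl peptidase-4 that is given in type 2 diabetes, or with the vehicle, 0.1% DMSO. Libraries of polyadenylated RNA comprised 5 of control cells with vehicle, 5 of control cells with linagliptin, 3 of DM-HFD cells with vehicle and 3 of DM-HFD cells with linagliptin. Diet, streptozotocin and age differ together between the 2 kinds of mice, and any difference in the day of isolation or sequencing, which the sources do not give, cannot be told apart from them. The labels do not say that replicates came from separate animals or cultures, so p-values measure the spread between these libraries.

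Zinc finger proteins of the C2H2 type hold short repeated units in which a pair of cysteines and a pair of histidines grip a zinc ion, and each unit reads a few bases of DNA. Many of them also carry a KRAB domain, which recruits the scaffold protein TRIM28 and, through it, the histone methyltransferase SETDB1 and HP1 proteins, so that the bound site is packed into heterochromatin. KRAB zinc finger genes lie in clusters, evolve rapidly and are best known for silencing retroelements and for keeping genomic imprints, and little is known of most of them in the heart. Other Zfp proteins bind RNA, tag proteins with ubiquitin or serve in ribosome assembly, so the shared name stands for a fold and not for a common task.

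Read from the translated transcripts of GENCODE M21, 283 of the 288 Zfp genes encode at least 1 C2H2 finger, against 4.94% of all genes of the table. Fingers numbered 10 or more in 165 of them, and the largest number was 36. A KRAB A box, scored as 10 or more matches at 14 positions of its pattern, was found in 161 members, and the linker that joins neighbouring fingers in 217. The other 127 comprised 122 members with C2H2 fingers and no KRAB A box, 4 without either pattern (Zfp330, Zfp365, Zfp703 and Zfp839) and Zfp36, whose fingers are of the CCCH type that binds RNA. With a cut of 9 or of 12 matches the number with a KRAB A box was 164 or 154. Transcripts of members with a KRAB A box had a median GC content of 41.3%, against 50.8% in the members without it and 50.5% over all genes. Chromosome 7 held 70 of the members (24.3%, against 7.52% of all genes), chromosome 17 held 38 and chromosome 13 held 25. Between 21 and 23 Mb of chromosome 17 lay 18 members, and each of these had a KRAB A box.

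The coding sequence of a finger from each of 9 members is shown here because their values recur below: 7 whose lower level in DM-HFD cells held under most settings, and a pair of neighbours on chromosome 17. They were read from GENCODE M21 on the GRCm38 genome, each inside coding sequence, and run from 5′ to 3′ on the strand of the gene. Capitals mark the codons of the 2 cysteines and the 2 histidines that hold the zinc, and the bases after the last capitals, where given, have the pattern of the linker that joins fingers. In Zfp367 they follow the last finger that the pattern found.
Zfp146, chr7:30162319-30162396, minus strand, finger 3 of 10: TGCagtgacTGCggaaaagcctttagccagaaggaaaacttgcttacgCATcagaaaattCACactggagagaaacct
Zfp445, chr9:122852892-122852969, minus strand, finger 5 of 12: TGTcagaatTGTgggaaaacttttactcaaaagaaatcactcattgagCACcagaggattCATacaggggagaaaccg
Zfp970, chr2:177475115-177475192, plus strand, finger 2 of 14: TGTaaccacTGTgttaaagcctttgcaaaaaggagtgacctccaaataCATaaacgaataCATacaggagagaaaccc
Zfp52, chr17:21560453-21560530, plus strand, finger 1 of 14: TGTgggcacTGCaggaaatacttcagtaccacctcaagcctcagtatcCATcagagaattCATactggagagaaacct
Zfp948, chr17:21587193-21587270, plus strand, finger 1 of 15: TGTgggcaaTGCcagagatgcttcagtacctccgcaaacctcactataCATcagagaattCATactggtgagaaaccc
Zfp91, chr19:12771008-12771085, minus strand, finger 3 of 5: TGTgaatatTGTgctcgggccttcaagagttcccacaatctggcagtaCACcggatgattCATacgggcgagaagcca
Zfp367, chr13:64144174-64144257, minus strand, finger 2 of 2: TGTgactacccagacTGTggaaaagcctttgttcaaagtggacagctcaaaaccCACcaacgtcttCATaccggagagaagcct
Zfp131, chr13:119775771-119775833, minus strand, finger 3 of 5: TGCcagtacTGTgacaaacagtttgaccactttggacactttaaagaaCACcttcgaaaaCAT
Zfp654, chr16:64786074-64786136, minus strand, finger 1 of 5: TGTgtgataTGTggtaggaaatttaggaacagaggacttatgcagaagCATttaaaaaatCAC
The fingers of Zfp52 and Zfp948 had the same base at 66 of 78 positions, those of Zfp146 and Zfp445 at 49 and those of Zfp146 and Zfp52 at 52. The stretch from Zfp654 had a GC content of 34.9%, and that from Zfp91 51.3%.

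Because fingers resemble each other, reads may fit several genes, and the deposited values do not tell how such reads were shared out. Over stretches of 75 bases, 183 members had no stretch in common with another gene, 105 had some, and in 16 at least 50% of the stretches were shared. Zfp965 and Zfp973 shared 100% of their stretches with each other, so their values are uncertain. Among members named below, Zfp433 shared 90.8%, Zfp991 80%, Zfp932 49.1%, Zfp617 39.0% and Zfp970 35.8%, whereas Zfp146, Zfp131, Zfp367, Zfp445 and Zfp654 shared none. Genes were matched to RefSeq (GRCm38.p6) by Ensembl identifier, or by symbol where that gave none. Windows from 250 bases before to 50 bases after the start of the gene were found for 238 members. Their median GC content was 54.3%, against 61% over 9010 genes, and it was 52.3% with and 60.7% without a KRAB A box. Searched on both strands, the GC box GGGCGG stood in 47.1% of the windows of members and in 65.8% over all genes, and the CCAAT box, spelled CCAAT, in 49.6% and 38.9%. These matches describe the windows and were not tested for binding.

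FPKM are fragments scaled to transcript length and library size, and they are not counts, so the precision of each value rests on the replicates. Of the summed FPKM, mitochondrially encoded mRNA took 34.7% to 37.6% in control cells with vehicle, 33.1% to 40% with linagliptin, and 44.1% to 52.2% in DM-HFD cells with vehicle. In DM-HFD cells with linagliptin it took 39.8%, 41.4% and 26.5%. The summed FPKM of 7 cardiomyocyte markers, each of which was measured, was 4981 to 5162 in control and 3205 to 4927 in DM-HFD cells with vehicle. Summed over 5 of 5 endothelial markers the ranges were 92.3 to 120 and 43.7 to 71.0, over 5 of 6 macrophage and leukocyte markers (Ptprc was not analysed here) 19.5 to 28 and 33 to 72.2, and over 3 of 3 red cell genes 6.82 to 18.0 and 18.9 to 76.0. The fibroblast and the pericyte and smooth muscle markers, 5 of 5 in each list, overlapped between the mice with vehicle (14.6 to 18.4 against 7.20 to 36.4, and 48.1 to 66.8 against 29.2 to 64.6). With linagliptin the endothelial sum was again lower in DM-HFD cells (97.6 to 165 against 36.9 to 88.1) and the macrophage and leukocyte sum higher (23.5 to 26.5 against 29.5 to 109). The red cell sum overlapped there (6.55 to 15.4 against 6.35 to 378), as did the fibroblast sum (15.8 to 21.3 against 7.49 to 61.3) and the pericyte and smooth muscle sum (47.6 to 72.3 against 48.0 to 113). The cardiomyocyte sum with linagliptin was 4748 to 5049.9 in control and 2816 to 5543 in DM-HFD cells, where the median library lay above every control library. The part of these lists in the values of the Zfp genes was not tested, and in such samples fewer cells of a type and less RNA per cell cannot be told apart.

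Zfp transcripts were scarce in these cells and scarcer in DM-HFD cells. The median member stood at 1.92 FPKM in control cells with vehicle and 2.12 with linagliptin, and at 1.22 and 1.3 in DM-HFD cells. The median of all genes was also lower in DM-HFD cells, at 3.84 FPKM with vehicle and 4.42 with linagliptin, against 4.94 and 5.06 in control cells. A mean of at least 1 FPKM was reached by 220 and 232 members in control cells and by 169 and 176 in DM-HFD cells. Their summed share of the FPKM of nuclear genes was 0.390% to 0.485% in control cells with vehicle, 0.440% to 0.490% with linagliptin and 0.283% to 0.301% in DM-HFD cells with vehicle. In DM-HFD cells with linagliptin the share was 0.383%, 0.254% and 0.271%. Replicate 1 of this last group stood apart: of its 3 libraries it held the highest value for 191 of the 288 members, and its median member was at 1.63 FPKM against 1.09 and 1.12.

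The member with the highest level was Zfp106, an RNA-binding protein needed by mice to keep motor nerves and muscle intact, which lies on chromosome 2 from 120506820 to 120563843. It stood at 52.3, 49.7, 55.6, 57.7 and 41.0 FPKM in control cells with vehicle and at 24.9, 34.2 and 27.2 in DM-HFD cells with vehicle. Every DM-HFD library lay below every control library, and the log2 fold change was -0.82 (standard error 0.15, adjusted p = 0.00267 from limma). Zfp91, a ubiquitin ligase of the noncanonical NF-kappaB pathway, came next with 20.8 ± 1.10 FPKM (SD, n = 5) in control and 10.7 ± 1.70 (SD, n = 3) in DM-HFD cells with vehicle. Zfp36, or tristetraprolin, which binds AU-rich mRNA and leads it to deadenylation, stood at 15 ± 4.05 FPKM in control and 16.4 ± 3.14 in DM-HFD cells, and its ranges overlapped. Zfp146, a protein made almost wholly of fingers, stood at 16.1 ± 1.79 FPKM and 6.90 ± 0.942, and Zfp617, with a KRAB A box, at 15.1 ± 1.64 and 7.17 ± 1.62. Zfp598, the ubiquitin ligase that marks collided ribosomes, stood at 10.7 ± 0.891 and 10.2 ± 1.77, and Zfp706 at 13 ± 1.03 and 11.9 ± 0.803. Zfp651 stood at 13 ± 3.67 and 12.2 ± 4.81. The remaining members of the 10 with the highest mean were Zfp830 (14.8 ± 1.81 and 8.71 ± 2.21 FPKM) and Zfp869 (13 ± 1.43 and 7.05 ± 0.963). Of these 10, 6 fell in DM-HFD cells with vehicle at an adjusted p under 0.05 in limma and 0 rose, against 28.3% lower and 2.91% higher over all genes. With trends on length and GC content removed, as described below, 3 of the 10 were lower and 1 was higher. In control cells with vehicle Zfp106 lay above every other member in each library, and from Zfp91 on the ranges of neighbours in this order overlapped.

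**Figure D1:**
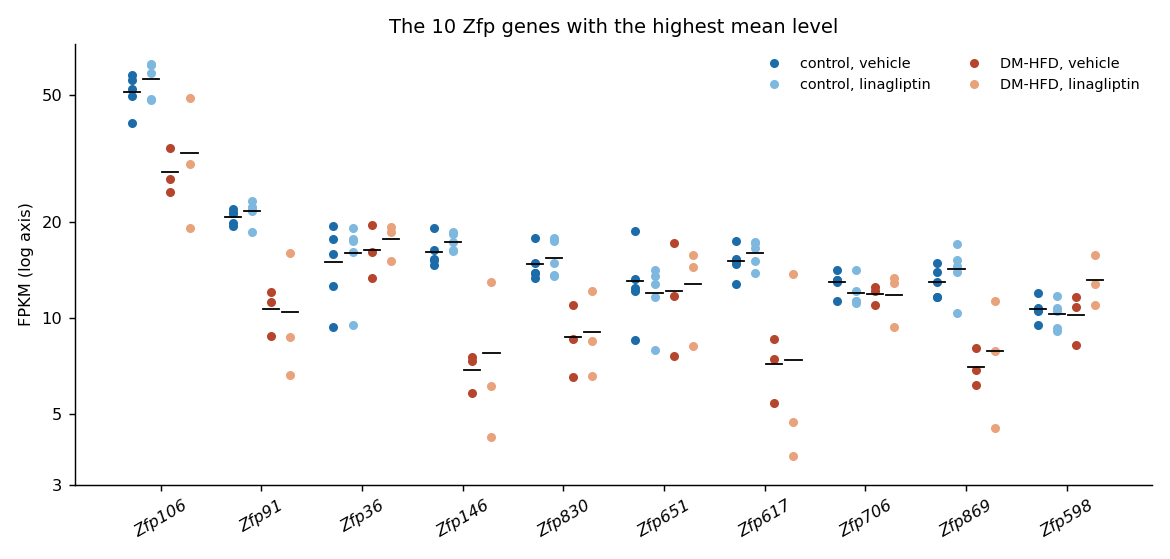
FPKM on a log axis of the 10 Zfp genes with the highest mean level in each of the 16 libraries, coloured by condition, with a line at each mean. DM-HFD libraries with vehicle lie below the control libraries for Zfp106, Zfp91, Zfp146, Zfp830, Zfp617 and Zfp869 and overlap them for Zfp36, Zfp651, Zfp706 and Zfp598.

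Control and DM-HFD cells with vehicle were compared to see what the state of the mouse changes in the absence of the drug. Of 278 members tested, 143 were lower in DM-HFD cells (51.4%) and 0 were higher in limma on log2(FPKM + 1), where a call is an adjusted p under 0.05 (Benjamini-Hochberg). Over all 11359 genes tested, 28.3% were lower and 2.91% higher. Genes entered the test when the mean of either group reached 0.5 FPKM, and 224 members passed in both groups, 54 through control cells alone and 10 in neither. Among the 224, 106 were lower, with a median log2 fold change of -0.38, and with no filter 145 of all 288 were lower against 27.7% of all genes. The deposited values cover only genes whose mean reached 0.5 FPKM in some condition. Leaving out the filter thus added only the 10 members and does not undo the choice through the higher group. The median log2 fold change of the tested members was -0.40 (range -1.44 to 0.47), against -0.20 over all genes. The study's own thresholds are a 1.5-fold change and an unadjusted p no higher than 0.05, and by these 79 were lower and 0 higher, against 18.2% and 1.84% of all genes. For 156 members every DM-HFD library lay below every control library and for 3 every one lay above, against 30% and 3.39% of all genes. These were counted over the 278 tested members, with the 54 that passed through control cells alone.

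By class, 96 of 153 tested members with a KRAB A box were lower (62.7%, median log2 fold change -0.50) and 47 of 125 without it (37.6%, median -0.29). These shares include the 54 members that passed the filter through control cells alone, of which 37 were lower. Members with a KRAB A box made up 68 of the 83 with a mean under 1 FPKM, so the filter may weigh on the 2 classes unequally. Among 57 tested genes of other names that also encode a KRAB A box, 27 were lower (47.4%, median -0.43). Relative to the mean of control cells with vehicle, the median member with a KRAB A box was shifted by -0.44, -0.45 and -0.51 on the log2 scale in the 3 DM-HFD libraries with vehicle. The median member without it was shifted by -0.39, -0.26 and -0.24, and the median of all genes by -0.26, -0.20 and -0.14. On chromosome 17, 27 of 38 tested members were lower, on chromosome 13, 16 of 22, and on chromosome 7, 22 of 67. The members on chromosome 7 had a median GC content of 49.2%, against 38.8% and 39.1% on chromosomes 17 and 13. In the stretch of chromosome 17 between 21 and 23 Mb, 14 of 18 members were lower, with a median GC content of 38.3%. Over all genes 28.3% were lower, and 65.8% of genes other than the members under 40% GC. With trends on length and GC content removed, as described below, 1 member of the stretch was lower and 1 higher. Chromosome 17 as a whole then had 1 and 1, chromosome 13 had 2 and 0, and chromosome 7 had 1 and 2. Among members with a KRAB A box, 76 of 111 tested with 10 or more fingers were lower and 20 of 40 with 3 to 9 fingers. The median GC contents of these sets were 40.7% and 43.9%. With trends removed, 4 and 0 of them were lower and 3 and 0 higher. Without a KRAB A box the order was the reverse. There 15 of 44 with 10 or more fingers were lower, 22 of 59 with 3 to 9 and 10 of 22 with 0 to 2. Scaled by the median of ratios between libraries, which moved the median of all genes from -0.20 to 0.01, 101 members were lower and 9 higher against 15.7% and 13.4% of all genes. With quantile scaling 70 members were lower and 12 higher. The shares of all genes under that scaling are not given here, so these counts are not set against them.

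**Figure D2:**
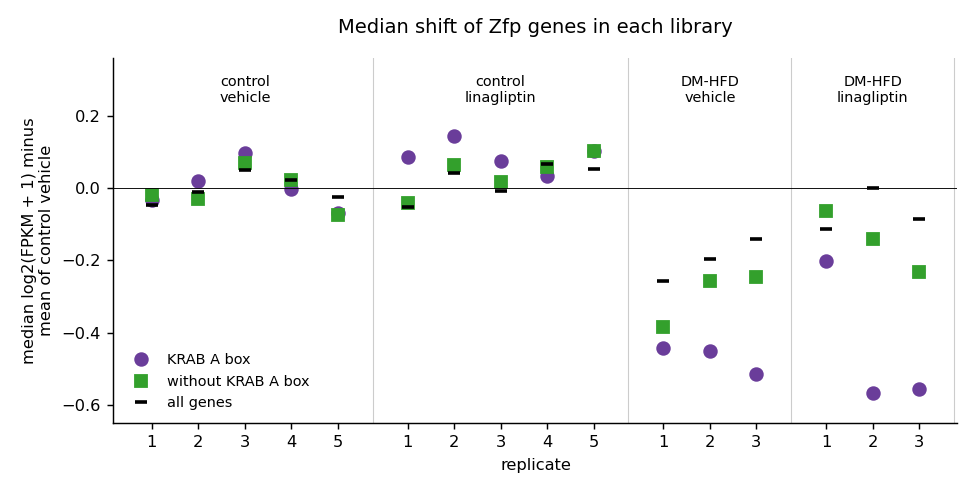
Median difference in log2(FPKM + 1) from the mean of control cells with vehicle for Zfp genes with a KRAB A box, Zfp genes without it and all genes, in each of the 16 libraries. Members with a KRAB A box lie between -0.44 and -0.51 in the 3 DM-HFD libraries with vehicle, and replicate 1 of DM-HFD cells with linagliptin, at -0.20, lies above the other 2.

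The lowest log2 fold change belonged to Zfp24, a SCAN domain protein that mice need for myelination, which lies on chromosome 18. It stood at 8.04, 7.78, 9.84, 7.86 and 7.42 FPKM in control and at 0.748, 4.44 and 2.99 in DM-HFD cells with vehicle, and replicate 1 of the latter was far below the other 2. Its log2 fold change was -1.44 (standard error 0.30, adjusted p = 0.00454). Zfp52 and Zfp948, whose fingers are printed above, lie close to each other on chromosome 17 and have a KRAB A box. Zfp52 stood at 17.5, 14.8, 9.46, 7.71 and 13.2 FPKM in control and 6.16, 4.45 and 4.81 in DM-HFD cells (log2 fold change -1.10, adjusted p = 0.00545). Zfp948 stood at 8.21, 8.28, 6.41, 3.93 and 7.79 FPKM in control and 2.31, 2.00 and 2.80 in DM-HFD cells (log2 fold change -1.20, adjusted p = 0.00200). Control libraries of both spread widely, and even the lowest of them, replicate 4, lay above each DM-HFD library. Zfp292, a large protein first described as an activator of the growth hormone gene in rat pituitary, stood at 2.74 to 3.28 FPKM in control cells and at 1.18, 0.983 and 0.591 in DM-HFD cells (log2 fold change -1.09, adjusted p = 0.000552). The log2 fold changes of these genes came from limma, as did their adjusted p.

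In this comparison the log2 fold change followed base composition and length over all genes. Across 11301 genes, which are not independent replicates, Spearman's rho was 0.499 with the GC content and -0.476 with the length of the leading transcript, and across the 278 members it was 0.584 and -0.224. Under 40% GC, 77.9% of 68 members and 65.8% of 447 other genes were lower, with medians of -0.56 and -0.61. From 40% to 45% GC, 71.8% of 71 members and 61.7% of 1942 others were lower, with medians of -0.53 and -0.54. From 45% to 50% these shares were 52.9% of 51 members and 36.2% of 2779 others (medians -0.44 and -0.29), and from 50% to 55% they were 22.0% of 41 and 12.8% of 2963 (medians -0.25 and -0.08). At 55% GC and above, 6.38% of 47 members and 6.33% of 2892 others were lower. After a smooth trend on length and GC content was taken out of each library, 14 members were lower and 7 higher, against 5.58% and 4.57% of all genes, and the median of the members was -0.02. By class, 4 lower and 3 higher members had a KRAB A box and 10 and 4 did not. By construction this correction also takes away any change that itself follows GC content or length, and which values are closer to the cells was not tested. All 14 were among the 143 (9.79% of them), and 598 of the 3220 lower genes of the whole table kept their call (18.6%). The members that did not pass in limma once the trends were removed included Zfp106 (-0.25, adjusted p = 0.115), Zfp24 (-0.73, adjusted p = 0.154), Zfp292 (-0.28, adjusted p = 0.101), Zfp52 (-0.59, adjusted p = 0.104), Zfp948 (-0.68, adjusted p = 0.0609), Zfp617 (-0.46, adjusted p = 0.0573) and Zfp869 (-0.49, adjusted p = 0.0552). Zfp433 and Zfp991 then stood at 0.24 and 0.02 (adjusted p = 0.135 and 0.943).

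**Figure D3:**
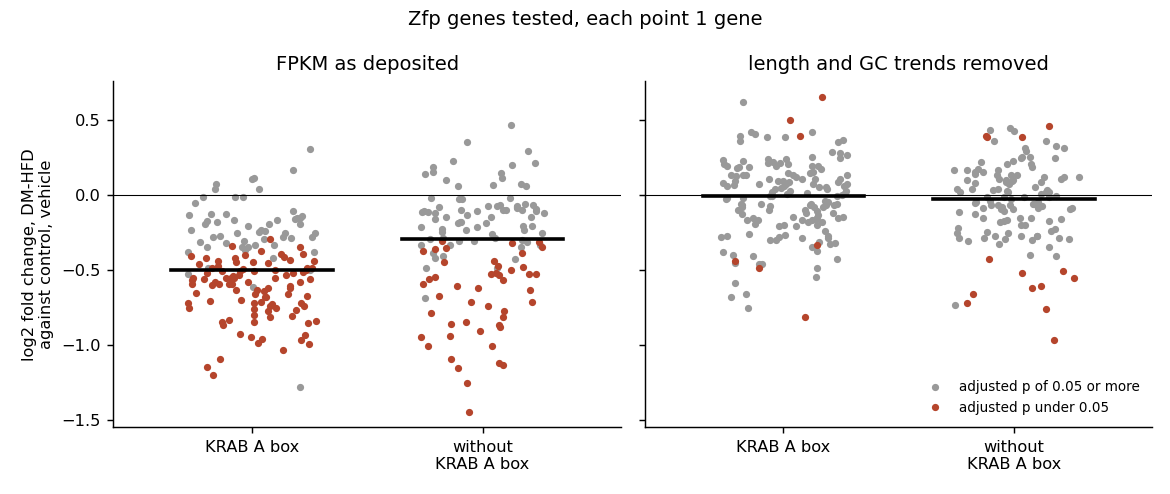
Log2 fold change of DM-HFD against control cells with vehicle for each tested Zfp gene, with and without a KRAB A box, in FPKM as deposited (left) and with length and GC trends removed (right), coloured where the adjusted p is under 0.05, with a line at each median. As deposited, 96 and 47 genes are lower. With trends removed, 4 and 10 are lower and 3 and 4 higher.

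**Figure D4:**
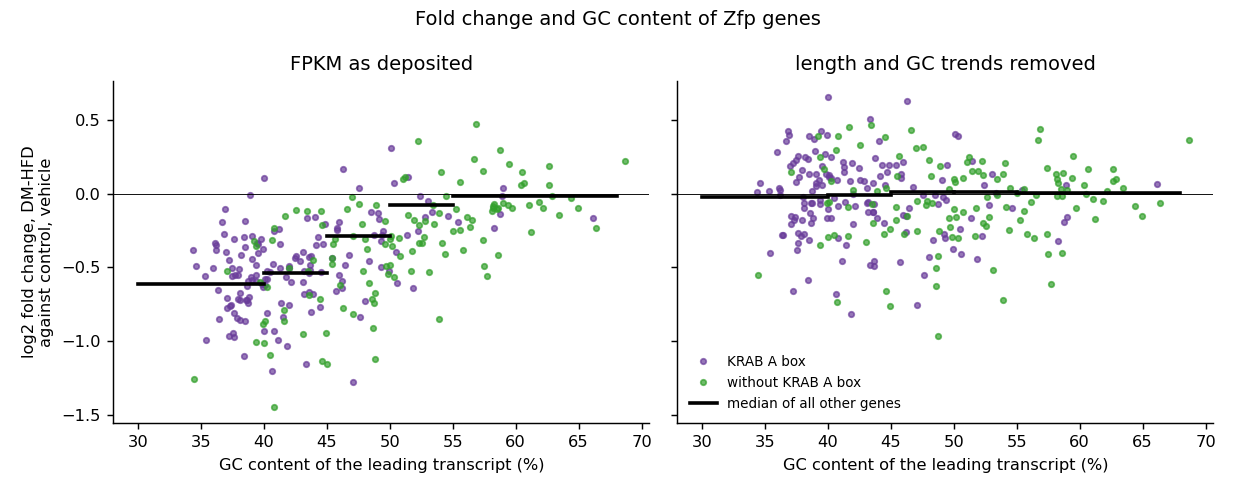
Log2 fold change of DM-HFD against control cells with vehicle against the GC content (%) of the leading transcript for each tested Zfp gene, as deposited (left) and with trends removed (right), with black lines at the median of all other genes in each band of GC content. As deposited the median of other genes runs from -0.61 under 40% GC to -0.01 at 55% and above, and the Zfp genes spread around it.

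Among named members, 7 kept their call as lower in DM-HFD cells with vehicle under 22 of 23 other settings. The call was lost under a Ballgown-like model. This was an ordinary linear model on log2(FPKM + 1) with a covariate per library, summed from values below the upper quartile. Ballgown itself was not run. The Ballgown-like model called 0 members at an adjusted p under 0.05, and it left the log2 fold changes of the 7 negative. The share of all genes that this model called is not given here. Zfp146 lies on chromosome 7 from 30161269 to 30169750 and stood at 15.3, 16.4, 19.1, 15.2 and 14.7 FPKM in control and 7.54, 7.35 and 5.82 in DM-HFD cells with vehicle. In limma its log2 fold change was -1.12 as deposited (standard error 0.13, adjusted p = 0.000552) and -0.96 with trends removed (adjusted p = 0.00727). The lowest control library lay far above the highest DM-HFD library. Zfp131, a protein with a BTB domain, lies on chromosome 13 from 119765187 to 119790889 and stood at 9.72, 9.92, 6.79, 7.18 and 9.51 FPKM in control and 4.37, 2.62 and 3.07 in DM-HFD cells. Its log2 fold change was -1.15 (standard error 0.17, adjusted p = 0.00103) and -0.76 with trends removed. Control replicates 3 and 4 were the lowest of their group, still above each DM-HFD library. Zfp367, on chromosome 13 from 64133018 to 64153202, stood at 6.90, 7.89, 8.62, 8.58 and 8.67 FPKM in control and 3.93, 3.33 and 2.37 in DM-HFD cells, with log2 fold changes of -1.13 and, with trends removed, -0.66 (adjusted p = 0.000579 and 0.0168 from limma). Zfp445, a KRAB zinc finger protein that keeps genomic imprints in mouse and human embryos, lies on chromosome 9 from 122844529 to 122866006. It stood at 8.61, 8.16, 11.9, 8.72 and 7.68 FPKM in control and 3.54, 3.41 and 3.46 in DM-HFD cells, the closest agreement among DM-HFD libraries of the 7. Its log2 fold change was -1.15 (adjusted p = 0.000552) and -0.48 with trends removed (adjusted p = 0.0305).

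Zfp654, on chromosome 16 from 64780347 to 64851652, stood at 6.10, 5.16, 4.94, 4.76 and 4.48 FPKM in control and 1.41, 1.92 and 1.33 in DM-HFD cells with vehicle. Its transcript had a GC content of 34.4%, and its log2 fold change went from -1.26 as deposited to -0.55 with trends removed (adjusted p = 0.000552 and 0.0266 from limma). Zfp91, on chromosome 19 from 12763660 to 12796126, stood at 19.8, 21.4, 21.9, 21.3 and 19.4 FPKM in control and 11.2, 12.1 and 8.80 in DM-HFD cells, with values of -0.91 and -0.50. Zfp970, a KRAB zinc finger gene on chromosome 2 from 177464733 to 177478129, stood at 6.98, 7.13, 10.2, 8.49 and 6.52 FPKM in control and 3.7, 3.22 and 2.99 in DM-HFD cells, with values of -1.03 and -0.81. The groups of these 3 genes did not overlap. Replicate 1 of DM-HFD cells with linagliptin was the highest of its 3 libraries for each of the 7, at 13 FPKM for Zfp146 against 4.25 and 6.14, and at 6.53 for Zfp445 against 1.78 and 2.53. The remaining 7 of the 14 members that were lower with trends removed were Zfp839 (-0.72), Zfp830 (-0.62), Zfp692 (-0.61), Zfp3 (-0.52), Zfp251 (-0.44), Zfp664 (-0.42) and Zfp160 (-0.33), given as log2 fold changes. Zfp839 stood at 3.47 ± 0.509 FPKM (SD, n = 5) in control and 1.48 ± 0.214 (SD, n = 3) in DM-HFD cells, and Zfp664 at 7.99 ± 0.678 and 4.37 ± 0.157.

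**Figure D5:**
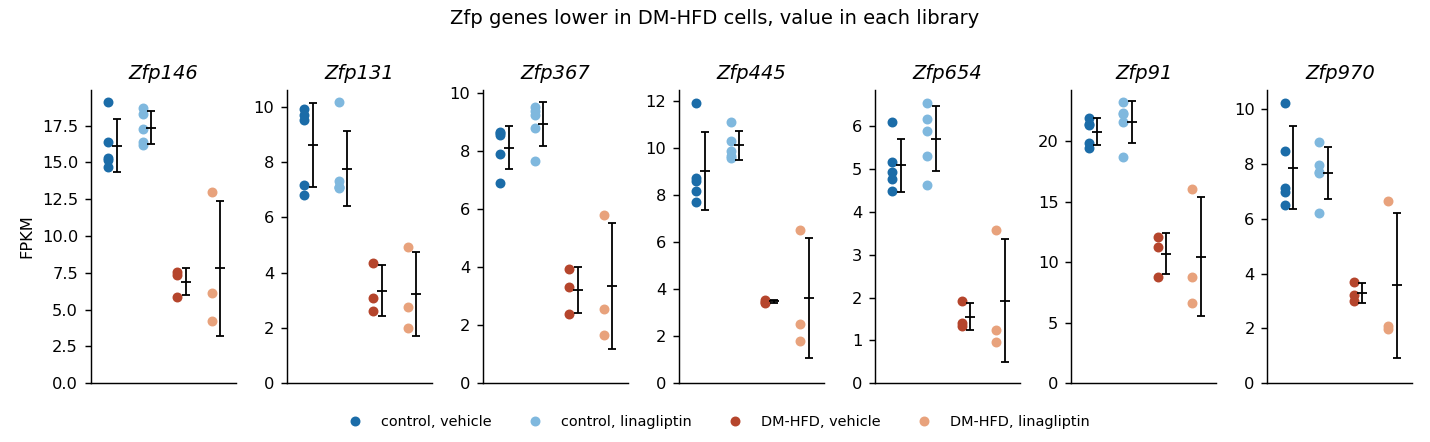
FPKM of Zfp146, Zfp131, Zfp367, Zfp445, Zfp654, Zfp91 and Zfp970 in each library, with the mean and SD of each condition (n = 5, 5, 3 and 3). For each gene the 3 DM-HFD libraries with vehicle lie below the 5 control libraries with vehicle, and 1 DM-HFD library with linagliptin lies well above the other 2.

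The 7 members that were higher with trends removed did not rise in FPKM as deposited. They were Zfp54 (0.66), Zfp111 (0.50), Zfp706 (0.46), Zfp655 (0.39), Zfp709 (0.39), Zfp974 (0.39) and Zfp11 (0.38), given as log2 fold changes after the correction. Zfp974 and Zfp709 were lower as deposited, with log2 fold changes of -0.32 and -0.38 (adjusted p = 0.0308 and 0.0260 from limma). Zfp706, a small protein with 1 finger, stood at 11.3, 13.2, 14.2, 13 and 13.2 FPKM in control and 12.5, 11 and 12.2 in DM-HFD cells with vehicle, and the groups overlapped. Its log2 fold change was -0.12 as deposited (adjusted p = 0.469), so its call rests on the correction.

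Of 31 members fixed for a known role, mostly outside the repression of single sites or in heart, muscle or fat, 12 fell in DM-HFD cells with vehicle (38.7%, against 28.3% of all genes) and 0 rose. With trends removed 1 of these calls, that of Zfp91, held, which is no more than the 5.58% lower over all genes. Among activators and repressors of transcription, Zfp148, which binds GC-rich promoters, stood at 5.64 ± 0.513 FPKM (SD, n = 5) in control and 2.61 ± 0.401 (SD, n = 3) in DM-HFD cells (log2 fold change -0.88, adjusted p = 0.000720). Zfp281, a regulator of pluripotency in mouse embryonic stem cells, stood at 4.62 ± 0.534 and 1.90 ± 0.120 FPKM (-0.95, adjusted p = 0.000552). Zfp143, which binds the promoters of many housekeeping and small nuclear RNA genes, stood at 4.16 ± 0.673 and 2.34 ± 0.211 FPKM (-0.62, adjusted p = 0.00595). With trends removed their log2 fold changes were -0.07, -0.33 and -0.28 and none passed in limma. Zfp638, a cofactor of fat cell differentiation in mouse, stood at 3.02 ± 0.826 and 1.20 ± 0.332 FPKM (-0.86, adjusted p = 0.00368), and Zfp318, which controls the expression of IgD in B cells, at 3.39 ± 0.491 and 1.37 ± 0.785 (-0.94, adjusted p = 0.00726). Zfp110 and Zfp369, KRAB proteins that bind the p75 neurotrophin receptor, had values of -0.49 and -0.84 (adjusted p = 0.00597 and 0.00350). Zfp326, a subunit of a complex that links elongation to splicing, had -0.53 (adjusted p = 0.0210), and its call was lost without DM-HFD replicate 1 (adjusted p = 0.0636) or replicate 3 (adjusted p = 0.0589).

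KRAB proteins with a known target differed in how far their libraries separated. Zfp809, which silences proviruses of murine leukaemia virus in mouse embryonic cells, stood at 4.5, 6.36, 6.87, 6.04 and 4.97 FPKM in control and 3.18, 3.46 and 3.06 in DM-HFD cells with vehicle, and in limma its log2 fold change was -0.66 (adjusted p = 0.00511). Zfp568, which represses a placental transcript of Igf2, stood at 9.61, 3.28, 11.3, 2.53 and 9.60 FPKM in control and 0.685, 3.14 and 2.95 in DM-HFD cells. Its control libraries fell into a high set of 3 and a low set of 2, the low ones near the DM-HFD libraries, and its log2 fold change of -1.28 did not pass (adjusted p = 0.0569). Zfp57, the imprinting factor, was at 0.505 ± 0.248 and 0.263 ± 0.204 FPKM (adjusted p = 0.251). Among members that serve ribosome assembly, Zfp593 stood at 8.70, 9.17, 10.2, 6.28 and 10.9 FPKM in control and 10.9, 13.1 and 14.4 in DM-HFD cells (log2 fold change 0.47, adjusted p = 0.0582), and Zfp622 at 6.66 ± 0.480 and 7.30 ± 0.716 (adjusted p = 0.470). Zfp260, a partner of GATA4 in rat heart, ranged from 0.521 to 5.57 FPKM among control libraries alone, a range wider than the difference between its means of 3.03 and 2.35. The other members of the list that were not called were Zfp207 (adjusted p = 0.210), Zfp346 (0.213), Zfp384 (0.695), Zfp335 (0.791), Zfp521 (0.122), Zfp516 (0.283), Zfp451 (0.0976), Zfp697 (0.108), Zfp217 (0.0712), Zfp932 (0.123), Zfp462 (0.0620) and Zfp703 (0.874), each as an adjusted p from limma, beside Zfp36 and Zfp598 above.

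The partners through which KRAB proteins act were listed alongside. Of 20 genes of the KRAB corepressor and of heterochromatin, 14 fell in DM-HFD cells with vehicle and 0 rose, against 28.3% lower and 2.91% higher over all genes, with a median log2 fold change of -0.56. Trim28, the scaffold itself, stood at 18.7 ± 2.04 FPKM in control and 20.8 ± 4.13 in DM-HFD cells (adjusted p = 0.536 from limma), while Setdb1 had a log2 fold change of -0.54 (adjusted p = 0.0163). The HP1 genes Cbx1, Cbx3 and Cbx5 had -1.02, -0.93 and -0.90. With trends removed, Cbx1, Cbx3 and Mphosph8 remained lower and Rbbp4 was higher. A list of 12 genes beside Zfp36 held Cnot genes of the deadenylation machinery that it recruits, and its relatives Zfp36l1 and Zfp36l2. Of the whole list 4 fell and 0 rose, a share near that of all genes (28.3% lower). The 4 were Cnot1, Cnot2, Cnot6 and Cnot6l, while Zfp36l1 and Zfp36l2 were not called (adjusted p = 0.825 and 0.105 from limma). Of other zinc finger families, 17 of 37 Zbtb, 6 of 16 Zc3h, 7 of 18 Zkscan and Zscan and 4 of 13 Klf genes fell, and 11 of the 26 Zfp names left out by the rule. In the Zbtb list 1 gene rose and 0 genes of the other lists did. All genes had 28.3% lower and the members 51.4%, the Klf share lies near the former, and no test of the difference between lists was made.

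Control and DM-HFD cells were compared again in the presence of linagliptin, in libraries separate from those with vehicle. Of 284 members tested, 132 were lower and 1 was higher at an adjusted p under 0.05 in limma (46.5% lower), against 21.9% lower and 4.67% higher over all 11555 genes. The mean of 0.5 FPKM was reached in both groups by 228 members, of which 96 were lower. It was reached in control cells alone by 55, of which 36 were lower, and with no filter 133 of all 288 were lower. At the thresholds of the study 104 were lower and 3 higher, against 17.9% and 3.83% of all genes. The median log2 fold change was -0.42, against -0.06 over all genes, and 94 of 158 members with a KRAB A box and 38 of 126 without it were lower. The counts by class include the 55 members that passed through control cells alone. The number rested on the DM-HFD libraries: without replicate 1, the library that stood apart, 168 were lower and 20 higher, and without replicate 3, 5 were lower and 0 higher. The number of higher members also rested on the scaling, with 114 lower and 15 higher by median of ratios, 72 and 21 by quantiles, 76 and 16 with the length trend alone removed and 154 and 10 in a fit of all 4 groups. Shares of all genes under these settings, or with a library left out, are not given here. Whether the Zfp genes moved more than other genes was not tested. For 127 members every DM-HFD library lay below every control library and for 8 above, against 21.8% and 6.25% of all genes. With trends removed 9 were lower and 4 higher, against 2.93% and 2.24% of all genes. Zfp160, a KRAB zinc finger gene on chromosome 17, stood at 2.51, 2.54, 2.20, 2.40 and 2.69 FPKM in control and 1.10, 0.348 and 0.312 in DM-HFD cells (log2 fold change -1.16, adjusted p = 0.00533). Zfp930 stood at 2.95, 2.36, 2.07, 2.37 and 2.24 FPKM in control and 0.979, 0.409 and 0.144 in DM-HFD cells (log2 fold change -1.20, adjusted p = 0.00578). In both genes DM-HFD replicate 1 was the highest of its group and still below the control libraries. Zfp991 (log2 fold change -0.99), Zfp946 (-0.80) and Zfp760 (-0.70) completed the 5 with the lowest p, all with a KRAB A box, and none of the 5 passed with trends removed. The member that was higher, Zfp574, stood at 1.68, 1.62, 2.06, 2.03 and 2.01 FPKM in control and 2.60, 2.67 and 3.12 in DM-HFD cells (log2 fold change 0.40, adjusted p = 0.0344), and its groups did not overlap. Its call was lost without control replicate 1, 2, 4 or 5 or DM-HFD replicate 2 or 3, and with trends removed (adjusted p = 0.172). Among the 7 members described above, Zfp146 had a log2 fold change of -1.19, Zfp445 -1.40 and Zfp91 -1.06 (adjusted p = 0.0137, 0.00945 and 0.0128), and the calls of Zfp146 and Zfp91 were lost without DM-HFD replicate 3 (adjusted p = 0.0778 and 0.0740). With trends removed Zfp367 (-0.82, adjusted p = 0.0478 from limma) alone of the 7 passed in this comparison, while Zfp146 had -1.12 (adjusted p = 0.0516), Zfp445 -0.69 (adjusted p = 0.0541) and Zfp91 -0.75 (adjusted p = 0.0595).

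Linagliptin and vehicle were compared within control cells to see whether the drug acts on cardiomyocytes directly. All 288 members were tested, 0 passed an adjusted p of 0.05 in limma (the lowest was 0.997), as did 0 of all genes (0%), and 0 passed the thresholds of the study (0.114% higher and 0.106% lower over all genes). The Ballgown-like model also called 0. An unadjusted p under 0.05 was found for 22 members, against 4% of all 11365 genes, and 18 of the 22 had a KRAB A box. The log2 fold change was above 0 for 215 of the 288, against 57.2% of all genes, with a median of 0.07 against 0.02. Here too the log2 fold change followed GC content, with a Spearman's rho of -0.336 over all genes and -0.466 across the members. With trends removed the median was 0.02 and 8 members had an unadjusted p under 0.05, against 3.12% of all genes. Zfp292 had the lowest p: it stood at 3.04, 3.15, 3.28, 3.04 and 2.74 FPKM with vehicle and 3.88, 4.68, 3.65, 3.51 and 4.06 with linagliptin. Each library with linagliptin lay above each with vehicle, and the log2 fold change was 0.29 (unadjusted p = 0.00420, adjusted p = 0.997 from limma). Zfp65 stood at 2.15, 2.11, 2.11, 2.01 and 2.17 FPKM with vehicle and 2.75, 2.43, 2.35, 2.51 and 2.66 with linagliptin, and Zfp597 at 2.62, 2.88, 2.78, 2.43 and 2.28 and at 3.4, 4.10, 2.92, 2.96 and 3.20. Neither pair of groups overlapped, and their log2 fold changes were 0.19 and 0.26. Libraries were apart in this way, all higher with linagliptin, for 5 members and lower for 0, against 0.581% and 0.176% of all genes. Zfp943 and Zfp866 had log2 fold changes of 0.29 and 0.21. The libraries with vehicle are the same as in the comparison of the mice, where Zfp292, Zfp943, Zfp597, Zfp65 and Zfp866 were lower in DM-HFD cells, so the values of both comparisons are not independent.

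Within DM-HFD cells 232 members were tested and 0 passed an adjusted p of 0.05 in limma, as did 0 of all 11127 genes (0%), and the Ballgown-like model also called 0. An unadjusted p under 0.05 was found for 2 members, against 1.16% of all genes. Zfp568 alone passed the thresholds of the study, against 0.494% higher and 0.162% lower over all genes. It stood at 0.685, 3.14 and 2.95 FPKM with vehicle and 3.86, 3.56 and 6.95 with linagliptin, a log2 fold change of 0.89 (standard error 0.38, unadjusted p = 0.0466, adjusted p = 1.00 from limma). The groups were apart by a narrow gap, with vehicle replicate 1 far below and linagliptin replicate 3 far above the other values. The other member, Zfp983, stood at 0.975, 0.847 and 0.881 FPKM with vehicle and 0.604, 0.449 and 0.311 with linagliptin (log2 fold change -0.39), also without overlap. With a pseudocount of 0.1, with nuclear genes only, and with median-of-ratios or quantile scaling, 0 members were higher and 1 was lower at the thresholds of the study, so the call of Zfp568 rests on the setting. Zfp3 stood at 2.12, 2.57 and 2.12 FPKM with vehicle and 3.98, 2.94 and 3.09 with linagliptin (0.40), and Zfp260 and Zfp526 had log2 fold changes of -0.61 and 0.51. Groups were apart for 18 members higher and 1 lower with linagliptin, against 5.66% and 0.62% of all genes. The median log2 fold change was 0.08, against 0.12 over all genes, and 0.00 with trends removed. Without linagliptin replicate 1, the library that stood apart, 0 members passed the adjusted p and 7 passed the thresholds of the study, 1 of them higher and 6 lower, and without linagliptin replicate 3 none passed either. Shares of all genes with a library left out are not given here.

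The difference between DM-HFD and control cells in the response to linagliptin was tested as an interaction in a fit of all 16 libraries. Of 288 members 0 passed an adjusted p of 0.05 in limma (the lowest was 0.891), as did 0 of all genes (0%), and 12 had an unadjusted p under 0.05, against 4.57% of all genes. Zfp768 had the lowest p, with a difference of 0.65 on the log2 scale (standard error 0.23, unadjusted p = 0.0114, adjusted p = 0.891). It stood at 11.4 ± 1.74 FPKM with vehicle in control cells, at 7.43, 9.40, 9.89, 10.5 and 10.9 with linagliptin, and in DM-HFD cells at 6.33, 10.3 and 8.43 with vehicle and 12.6, 9.95 and 11.6 with linagliptin. The ranges overlapped in each kind of mouse. Zfp983 had a difference of -0.52, Zfp574 0.47, Zfp946 -0.40 and Zfp433 -0.34 on the log2 scale. At the thresholds of the study 2 members passed, both higher, against 1.3% higher and 0.421% lower over all genes. This direction did not hold: with median-of-ratios scaling 2 passed, both lower, and with nuclear genes only 1 passed, also lower. Without replicate 1 of DM-HFD cells with linagliptin 4 were higher and 17 lower. The adjusted p was passed by 0 members in each of these fits, for which shares of all genes are not given here.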

How the data were processed

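Polyadenylated RNA of 16 cardiomyocyte samples was sequenced as stranded paired-end libraries. The authors deposited FPKM per gene, made per the labels with cutadapt, HISAT2 2.1.0 and StringTie 1.3.3 on GRCm38 and, per the methods, Ballgown. Whether strand entered the counting is not given in the sources used here. The table is limited to protein-coding genes whose mean reached 0.5 FPKM in some condition. Groups came from the labels. From the deposited FPKM, log2(FPKM + 1) was fitted with limma 3.58.1 (R 4.3.3, intensity trend of the variance) on all genes whose mean reached 0.5 FPKM in either group, with only the groups compared in each fit, and p-values were adjusted over all genes tested by Benjamini-Hochberg. Fold changes are on the log2(FPKM + 1) scale, which understates those of low genes. Length and GC trends were removed per library with natural splines (5 degrees of freedom). Fingers and KRAB boxes were read from translated GENCODE M21 transcripts, in place of the RefSeq proteins that had been planned. Named genes were the 10 with the highest mean, up to 10 lower and 10 higher by fold change between the mice with vehicle, those past the thresholds of the study or the 5 with the lowest p in the other comparisons, and a list by role, of which Zfp423 was not analysed here. Genes that held their call, or that were called only with trends removed, were picked out after their values were seen. The members and lists were chosen with earlier results of these data known. The fits were tested on simulated data. The alternatives are given in the closing section.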

Additional observations from a re-analysis of the deposited data

Results flagged for a closer look

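In 124 groups of 5 control libraries, 2 for each of 60 named members and the others for the summed shares of the Zfp genes, 9 held a library whose gap to its nearest neighbour was large for the range of the group, and chance gives about 1 in 20 such groups. Control cells with vehicle gave 5 of them, and replicate 3 was the library in 4. It stood at 9.84 FPKM for Zfp24 (the others at 7.42 to 8.04), 11.9 for Zfp445 (7.68 to 8.72), 4.5 for Zfp638 (2.62 to 2.69) and 5.88 for Zfp335 (4.72 to 5.03). Replicate 4 stood at 3.71 FPKM for Zfp281 (4.71 to 5.11). In control cells with linagliptin, replicate 2 stood at 10.2 FPKM for Zfp131 (7.07 to 7.33) and 4.43 for Zfp943 (3.46 to 3.71), replicate 1 at 10.3 for Zfp207 (11.4 to 11.7) and replicate 3 at 4.05 for Zfp335 (5.41 to 5.83).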

How the results depend on the processing

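Between DM-HFD and control cells with vehicle, 143 Zfp genes passed the adjusted p of limma and 113 to 142 when a library was left out. The number was 82 with quantile scaling, 62 with the length trend alone removed, 30 with the GC trend alone removed, 21 with both removed and 0 with the Ballgown-like model. At the thresholds of the study the count of 79 became 154 with a pseudocount of 0.1, 185 with TPM, 44 with median-of-ratios and 33 with quantile scaling, 31 with the Ballgown-like model, 28, 11 and 12 with the length trend, the GC trend or both removed, and 70 to 91 with a library left out. With linagliptin the 133 at the adjusted p became 13 with both trends removed, 15 with the GC trend alone removed, 0 with the Ballgown-like model and 5 to 188 with a library left out. The 107 at the thresholds became 167 with a pseudocount of 0.1 or TPM, 69 with quantile scaling, 16 with both trends and 14 with the GC trend alone removed, and 85 to 130 with a library left out. The removal of a single trend was chosen after seeing the data. Counts in this section are of the Zfp genes alone, and how far all genes moved under each setting is not set beside them.

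For linagliptin against vehicle 0 members passed the adjusted p in either kind of cell under each alternative run. At the thresholds, the count of 0 in control cells became 1 with a pseudocount of 0.1 or TPM, 4 with transcripts summed per gene and 0 to 1 with a library left out. In DM-HFD cells the count of 1, a higher member, became 1 lower member with a pseudocount of 0.1, nuclear genes only, median-of-ratios or quantile scaling, 0 with no filter, with trends removed or in a fit of all 4 groups, 2 with summed transcripts, 4 with TPM and 0 to 7 with a library left out (the 7 being 1 higher and 6 lower). For the interaction the count of 2, both higher, became 2 lower with median-of-ratios scaling, 14 with a pseudocount of 0.1, 11 with TPM, 8 with summed transcripts, 1 with nuclear genes only or quantile scaling, 0 with trends removed and 0 to 21 with a library left out (the 21 being 4 higher and 17 lower). The causes of these changes were not tested.

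The labels name no source that libraries of 1 number share. Deviations of same-numbered libraries correlated over 0.1 in 4 of 5 pairs in control cells, in 1 of 3 in DM-HFD cells and in 0 of 3 in each comparison of the mice (correlations from -0.34 to 0.00987 between the mice with vehicle and from -0.0535 to 0.0478 with linagliptin, -0.315 to 0.505 and -0.604 to 0.177 for the drug). In control cells 6 of 10 libraries correlated best with their own number, a hint of shared deviation, but not every pair passed 0.1 in any comparison, so the numbers were not taken as pairs. With a replicate block 96 members passed the adjusted p between the mice with vehicle, 0 with linagliptin and 0 in each comparison of the drug, and the interaction gave 4 at the thresholds.

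Some named log2 fold changes turned positive. Between the mice with vehicle these were Zfp706 (0.46 with both trends and 0.40 with the GC trend alone removed) and Zfp809 (0.025 with the Ballgown-like model). With linagliptin they were, with both trends removed, Zfp706 (0.59), Zfp946 (0.00025), Zfp760 (0.15), Zfp318 (0.10), Zfp148 (0.043), Zfp638 (0.15) and Zfp462 (0.13). With the GC trend alone removed they were Zfp706 (0.54), Zfp946 (0.038), Zfp760 (0.10) and Zfp932 (0.10), and with the length trend alone removed Zfp516 (0.37) and Zfp462 (0.22). Depth could not be used, since FPKM carry no counts.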
